A study of Mus musculus with 4 samples.

Results

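Long-term haematopoietic stem cells (HSCs) sorted from recipients of a 0.1 Gy graft were compared with those from recipients of an unirradiated graft. The comparison rests on 2 of the study's 4 arrays, the array labelled 0.1 Gy and the array labelled as control (0 Gy), and on the log2 difference per gene between them. A gene was included where its mean over the 4 arrays reached the median of all gene means, a log2 value of 4.06, which kept 11593 of 23185 genes. Of these, 102 symbols start with Igh, Igk or Igl, and results are given with them and over the other 11491.

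The starting material was mouse bone marrow cells of the Lin- ckit+ Sca+ phenotype, a mixture of stem cells and early progenitors. They received γ-irradiation at 0, 0.02, 0.1 or 0.5 Gy and were grafted into mice that had been lethally irradiated, so every recipient, the controls' included, was itself irradiated. After 6 months the long-term HSCs were sorted from bone marrow as Lin- ckit+ Sca+ Flk2- CD48- CD150+ cells, and total RNA from each dose went onto 1 whole-transcript array. The gate names no donor marker, so descent of the sorted cells from the graft is an assumption, and the sources used here do not give strain, age or whether RNA was pooled over recipients. With 1 array a side there is no spread within a dose and no test, so every difference is one between 2 arrays, whose small number limits precision.

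Long-term HSCs divide rarely and renew themselves while feeding all blood lineages through multipotent and then lineage-restricted progenitors. As cells leave the stem cell state they lose a set of HSC-enriched transcripts and begin to transcribe lineage genes, granule proteases and myeloperoxidase among the earliest on the granulocyte path. Ionising radiation breaks DNA and engages p53, and HSCs of old animals carry a known set of raised transcripts, many of which are platelet or adhesion genes.

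The sorted markers were compared first. Kit, the stem cell factor receptor, lay between 10.12 and 10.57 on the 4 arrays. Slamf1, which encodes CD150, was lowest at 0.1 Gy (7.16) and had 7.67 at 0 Gy. Flt3, the transcript of the excluded Flk2, was highest at 0.1 Gy, at 5.44 against 4.46 at 0 Gy and 4.76 at both 0.02 and 0.5 Gy. Cd48, which encodes the other excluded protein, had 4.13 at 0 Gy and 4.11 at 0.1 Gy. It was not kept, because its mean over the 4 arrays, with 3.08 at 0.02 Gy, was below the filter level. Ly6a, which encodes Sca, was not analysed here. Of the markers the gate selects for, Kit and Slamf1 transcripts were thus present on both arrays. Flt3, of an excluded marker, and Slamf1 were displaced in opposite directions.

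At 0.1 Gy 184 kept genes were at least 2-fold higher than at 0 Gy, 1.59% of those kept, and 311 were at least 2-fold lower, 2.68%. Without the immunoglobulin symbols the counts were 174 (1.51%) and 268 (2.33%). The median difference over all kept genes was 0, with 4422 genes above 0 Gy, 5300 below it and 1871 (16.1%) carrying exactly the same value on both arrays. The 5th and 95th percentiles were -0.73 and 0.61. Of the 50 largest differences, 34 belonged to immunoglobulin genes. A kept gene can still lie below the filter level on a single array, and this was so at 0 Gy for 48 of the 174 higher genes and at 0.1 Gy for 39 of the 268 lower ones. The size of those differences is uncertain.

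**Figure D1:**
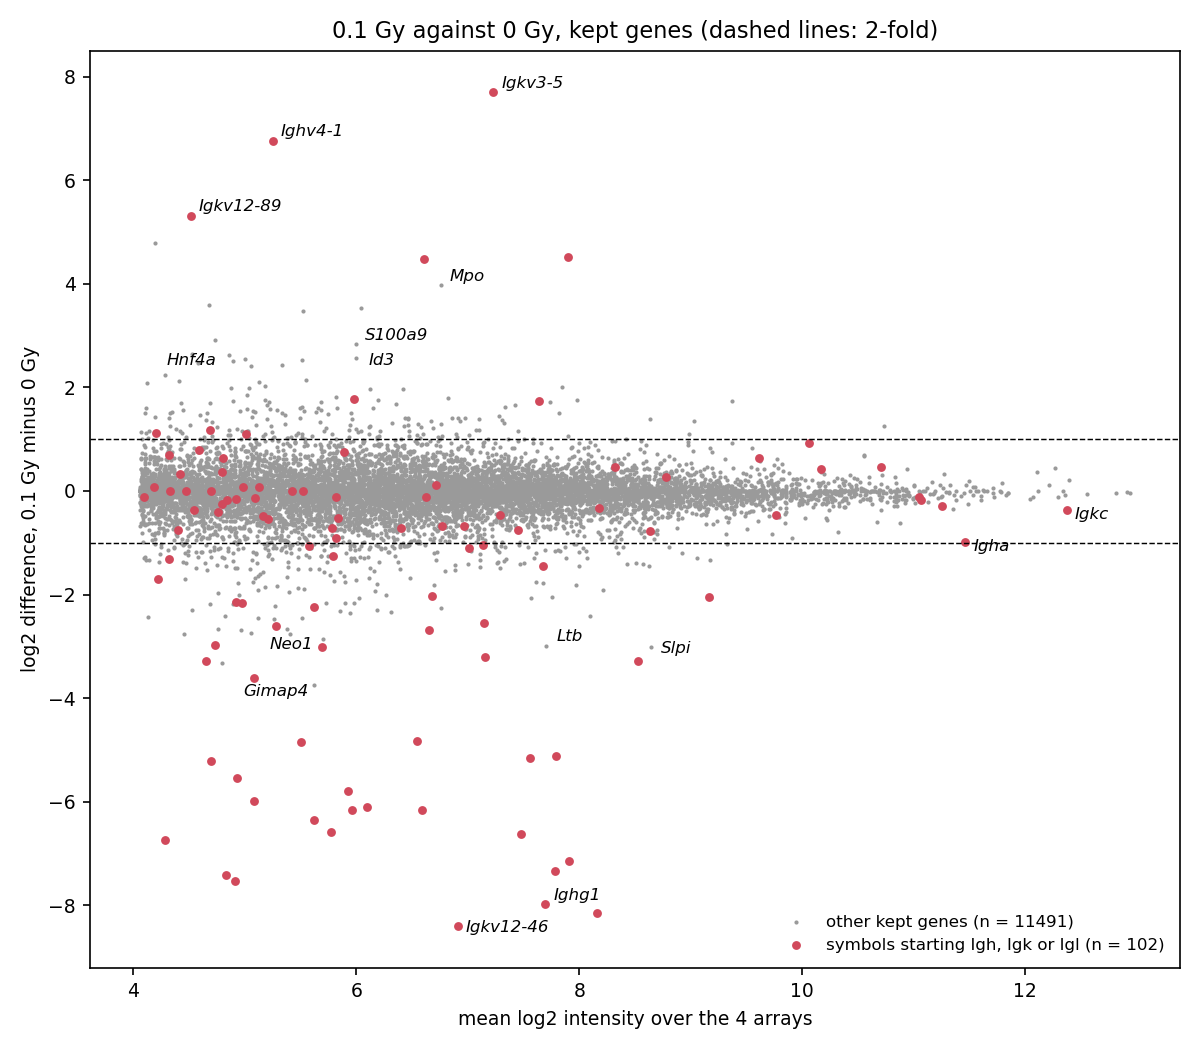
Log2 difference between the 0.1 Gy and 0 Gy arrays (vertical axis) against mean log2 intensity over the 4 arrays (horizontal axis) for the 11593 kept genes. Red points are the 102 symbols starting Igh, Igk or Igl, which reach from -8.40 to 7.69, and grey points are the other 11491 genes, whose scatter narrows to the right.

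Dim genes held more of the 2-fold differences than bright ones. With the 11491 genes cut into 3 equal classes of mean intensity, the lowest class held 94 that were 2-fold higher and 125 lower, and the SD of the difference over genes was 0.51. In the highest class 18 were higher and 52 lower, with an SD of 0.33. Lower genes outnumbered higher ones in each class, and in the brightest they made up 1.36% against 0.47%. The excess of lower genes was smaller under quantile normalization, with 199 higher and 235 lower over the 3 classes together.

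Gene lists were described by their median difference and by the members at least 1.5-fold higher or lower, a level that 638 (5.50%) and 867 (7.48%) of all kept genes reached. Over all 23185 measured genes the same level was reached by 925 (3.99%) and 1146 (4.94%). The plot of list medians sets the lists side by side. Granulocyte and multipotent progenitor lists lay at its upper end, and aged HSC, retinoid, GIMAP and class II lists at its lower end. That order is of kept members: over all measured members the granulocyte, multipotent progenitor and erythroid medians were 0.27, 0.27 and 0.31, and the retinoid median was -0.05.

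**Figure D2:**
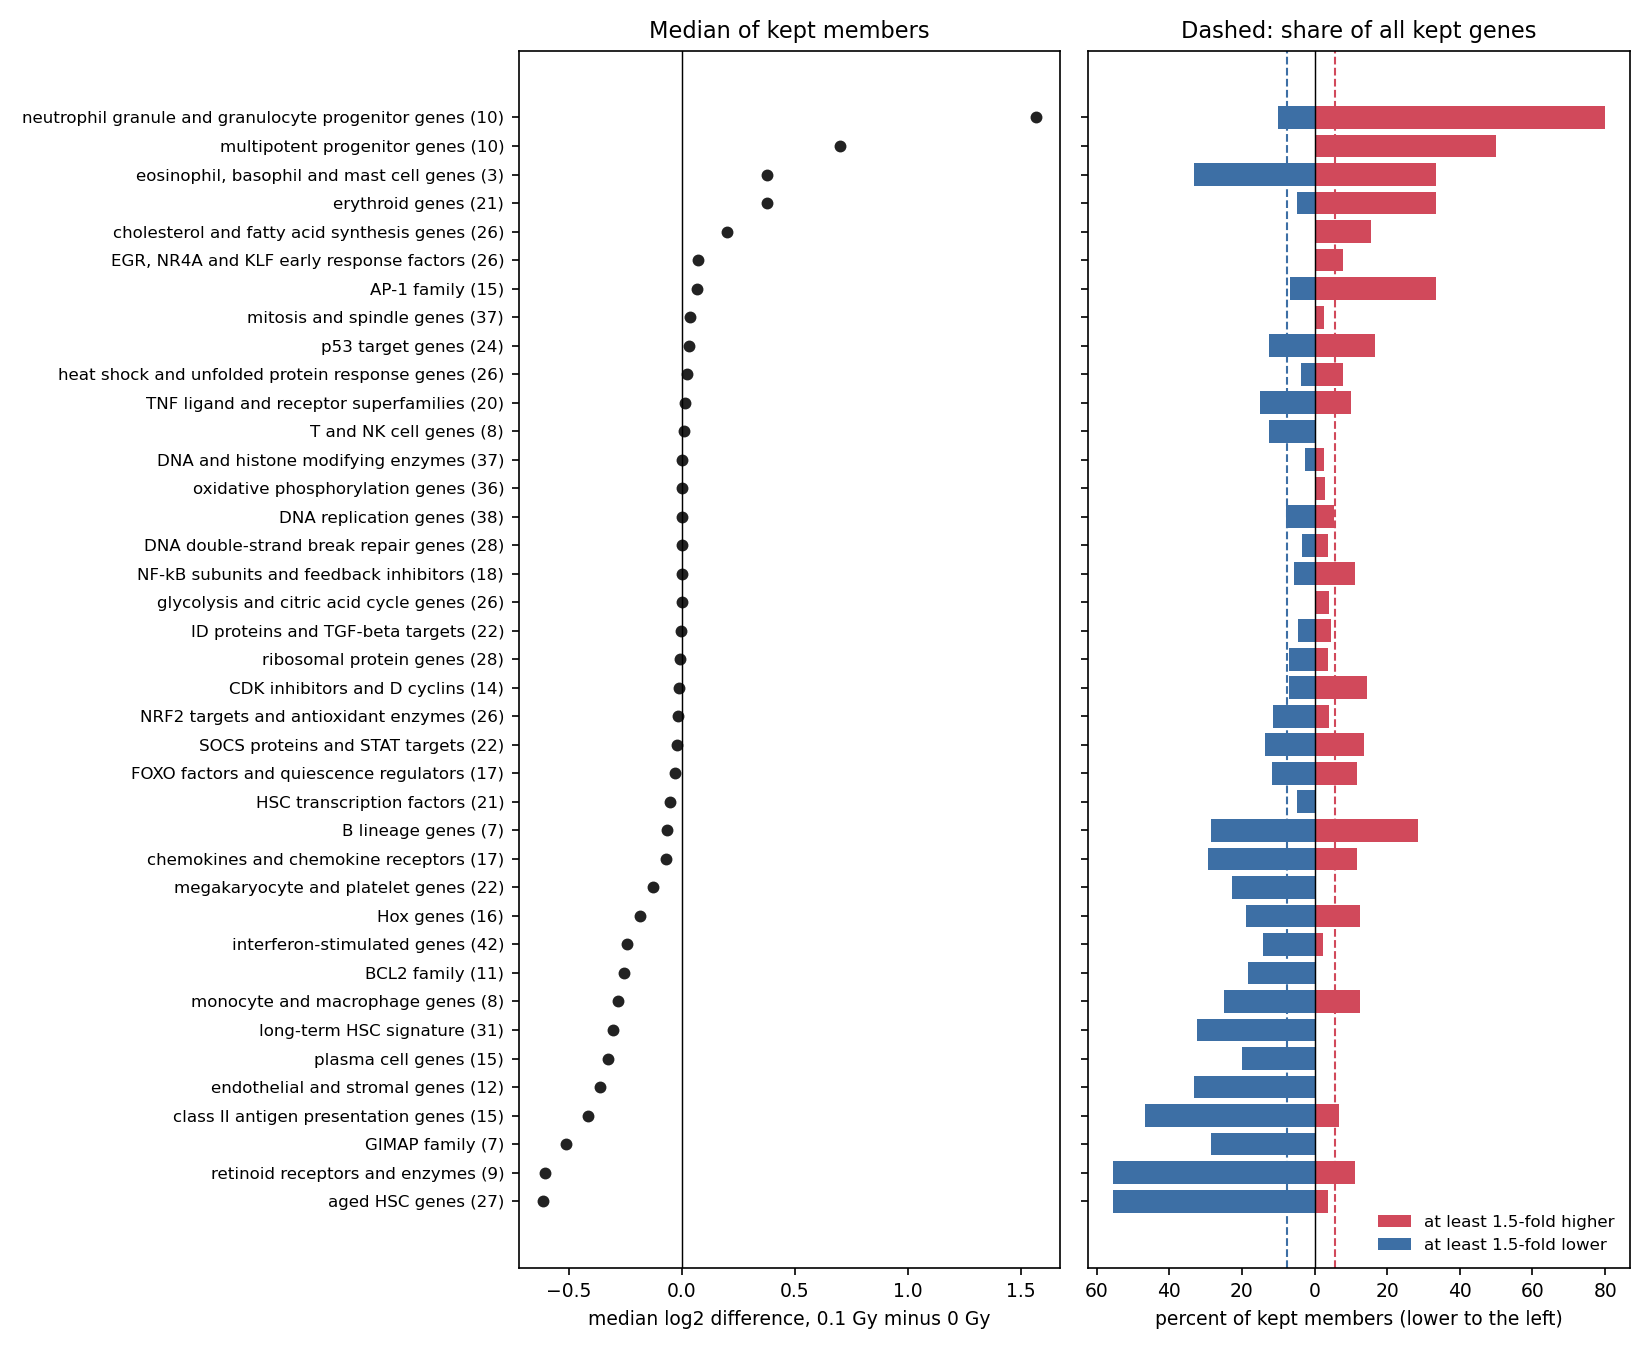
Left, the median log2 difference (0.1 Gy minus 0 Gy) of the kept members of 39 gene lists, with the number of kept members in brackets. Right, the percent of kept members at least 1.5-fold higher (red) or lower (blue), with dashed lines at the shares of all kept genes, 5.50% and 7.48%. Neutrophil granule genes have a median of 1.57 and aged HSC genes one of -0.61.

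Neutrophil granule and granulocyte progenitor genes were higher at 0.1 Gy. Of 24 measured members 10 were kept, 8 of which were at least 1.5-fold higher and 1 lower (median 1.57). Because the filter passes a dim gene that is bright on a single array, the 24 measured members are the fairer base, and over them the median was 0.27, with 9 higher and 1 lower. On both arrays 13 of the 24 lay below the filter level.

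Mpo (Entrez gene 17523) encodes the myeloperoxidase of azurophil granules. Its log2 values were 4.78, 6.44, 8.75 and 7.07 at 0, 0.02, 0.1 and 0.5 Gy, a 15.7-fold difference between 0.1 and 0 Gy. The 0.1 Gy array was highest and the 0 Gy array lowest of the 4.

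Elane (50701) and Ctsg (13035) encode the granule proteases neutrophil elastase and cathepsin G. Elane had 3.54, 4.09, 6.09 and 6.28, and Ctsg had 3.48, 3.82, 5.71 and 4.12. Both were below the filter level at 0 Gy. Elane was about as high at 0.5 Gy as at 0.1 Gy, whereas Ctsg was highest at 0.1 Gy, 1.59 above the next array. Prtn3, the proteinase 3 gene, differed little, with 7.60 at 0 Gy and 8.04 at 0.1 Gy.

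S100a8 (20201) and S100a9 (20202) encode the partners of the neutrophil protein calprotectin. S100a8 had 3.89, 2.81, 6.54 and 4.88, and S100a9 had 5.05, 6.26, 7.89 and 4.79 at the 4 doses in order. Each was highest at 0.1 Gy, by 1.66 and 1.62 over the next array. Camp, which encodes the secondary granule peptide cathelicidin, was not kept and had 2.61, 2.65, 4.78 and 2.80, again highest at 0.1 Gy.

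Members of the list with smaller differences were the receptor gene Csf3r (0.74), the progenitor gene Ms4a3 (0.75) and the glutathione transferase gene Gstm1 (0.91), all higher, and the haptoglobin gene Hp (-0.84), which was lower. Unlike Camp, the late granule genes Ltf and Mmp8 stayed dim on both arrays. Ltf, lactoferrin, had 2.47 and 2.61, and Mmp8, neutrophil collagenase, had 2.65 on each. Summed on the linear scale over the 24 measured members, the list reached 605 without irradiation, 959 at 0.02 Gy, 1577 at 0.1 Gy and 881 at 0.5 Gy. More cells of a type and more RNA per cell cannot be told apart in RNA from sorted populations, and the part of other cell types in these values was not tested.

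Promoters of the 4 most different of these genes are shown because the genes were high on the same array. Each line holds the 150 bases before the start that RefSeq annotates in GRCm38.p6, 5′ to 3′ on the gene's strand. Capitals mark GAGGAA, a core of sites for the myeloid factor PU.1, and TTNNGNAA, a loose form of the C/EBP site, searched on both strands. GAGGAA is present in 14.5% and TTNNGNAA in 22.7% of 32851 promoter windows of the same length.
Mpo, chr11:87793634-87793783, plus strand: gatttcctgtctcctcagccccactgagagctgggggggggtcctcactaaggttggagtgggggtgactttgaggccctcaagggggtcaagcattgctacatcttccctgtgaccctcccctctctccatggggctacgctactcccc
Elane, chr10:79886162-79886311, plus strand: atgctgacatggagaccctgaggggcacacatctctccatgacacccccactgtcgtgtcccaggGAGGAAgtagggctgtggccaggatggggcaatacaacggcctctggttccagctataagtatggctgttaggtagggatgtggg
S100a8, chr3:90668921-90669070, plus strand: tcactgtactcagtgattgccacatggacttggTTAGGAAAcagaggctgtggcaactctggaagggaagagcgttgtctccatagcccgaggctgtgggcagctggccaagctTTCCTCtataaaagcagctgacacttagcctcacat
S100a9, chr3:90695722-90695871, minus strand: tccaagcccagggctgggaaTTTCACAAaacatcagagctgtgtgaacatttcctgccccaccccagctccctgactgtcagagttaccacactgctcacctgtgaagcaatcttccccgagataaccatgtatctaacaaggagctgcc

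Counted from the start, Elane has GAGGAA at position -85. S100a8 has it on the opposite strand at -36 and TTNNGNAA at -117, and S100a9 has TTNNGNAA on the opposite strand at -130. Neither string occurs in these 150 bases of Mpo. Both strings are common, and a match is a description of the letters, not of binding.

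Multipotent progenitor genes pointed the same way. Of 17 measured members 10 were kept, 5 at least 1.5-fold higher and 0 lower (median 0.70), and over all 17 the median was 0.27. The list shares Mpo and Ctsg with the granule list. Cd34 (12490), which long-term HSCs of adult mice carry little of, had 8.68, 7.79, 9.77 and 9.70 at 0, 0.02, 0.1 and 0.5 Gy. Its 0.1 and 0.5 Gy values were nearly equal and above both other arrays. Cd52, a small surface glycoprotein of leukocytes, had 5.97, 8.29, 7.35 and 6.80, so that the 0 Gy array was lowest and the 0.02 Gy array highest. Among lymphoid members, Dntt (2.62 and 2.69) and Il7r (1.97 and 2.01) were dim on both arrays.

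Erythroid genes included 7 of 21 kept members at least 1.5-fold higher and 1 lower (median 0.37), and 8 of 26 measured members higher. Klf1, the erythroid master transcription factor, had 5.46, 4.90, 6.84 and 6.64 at the 4 doses in order. Ermap, an erythroid membrane protein gene, had 4.67, 4.89, 6.13 and 5.74. Car1, carbonic anhydrase 1, had 8.42, 7.59, 9.77 and 10.34. For these genes the 0.1 and 0.5 Gy arrays lay together above the 0 and 0.02 Gy arrays.

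Rhd (1.02), Rhag (0.77), the transferrin receptor gene Tfrc (0.64) and the sphingosine kinase gene Sphk1 (1.11) were the other higher members. The globin gene Hbb-b1 went the other way, with 8.59 at 0 Gy and 7.51 at 0.1 Gy, the lowest of the 4 arrays. It was the only measured member of the list at least 1.5-fold lower. The late erythroid genes Alas2 (2.57 and 2.62) and Slc4a1 (4.13 and 3.85) were dim. Against the mean of the 0, 0.02 and 0.5 Gy arrays the erythroid median was 0.10.

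Megakaryocyte and platelet genes had 0 of 22 kept members at least 1.5-fold higher and 5 lower (median -0.13). Vwf, von Willebrand factor, had 8.58, 8.98, 7.14 and 7.28, and Selp, P-selectin, had 8.12, 8.69, 6.97 and 6.99. Both were lower at 0.1 and 0.5 Gy than on the other arrays. Gp1bb, a subunit of the platelet receptor for von Willebrand factor, had 7.50 at 0 Gy and between 6.30 and 6.54 on the 3 irradiated arrays. Pan-megakaryocyte genes such as Itga2b (0.08) and Gfi1b (-0.08) hardly differed.

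**Figure D3:**
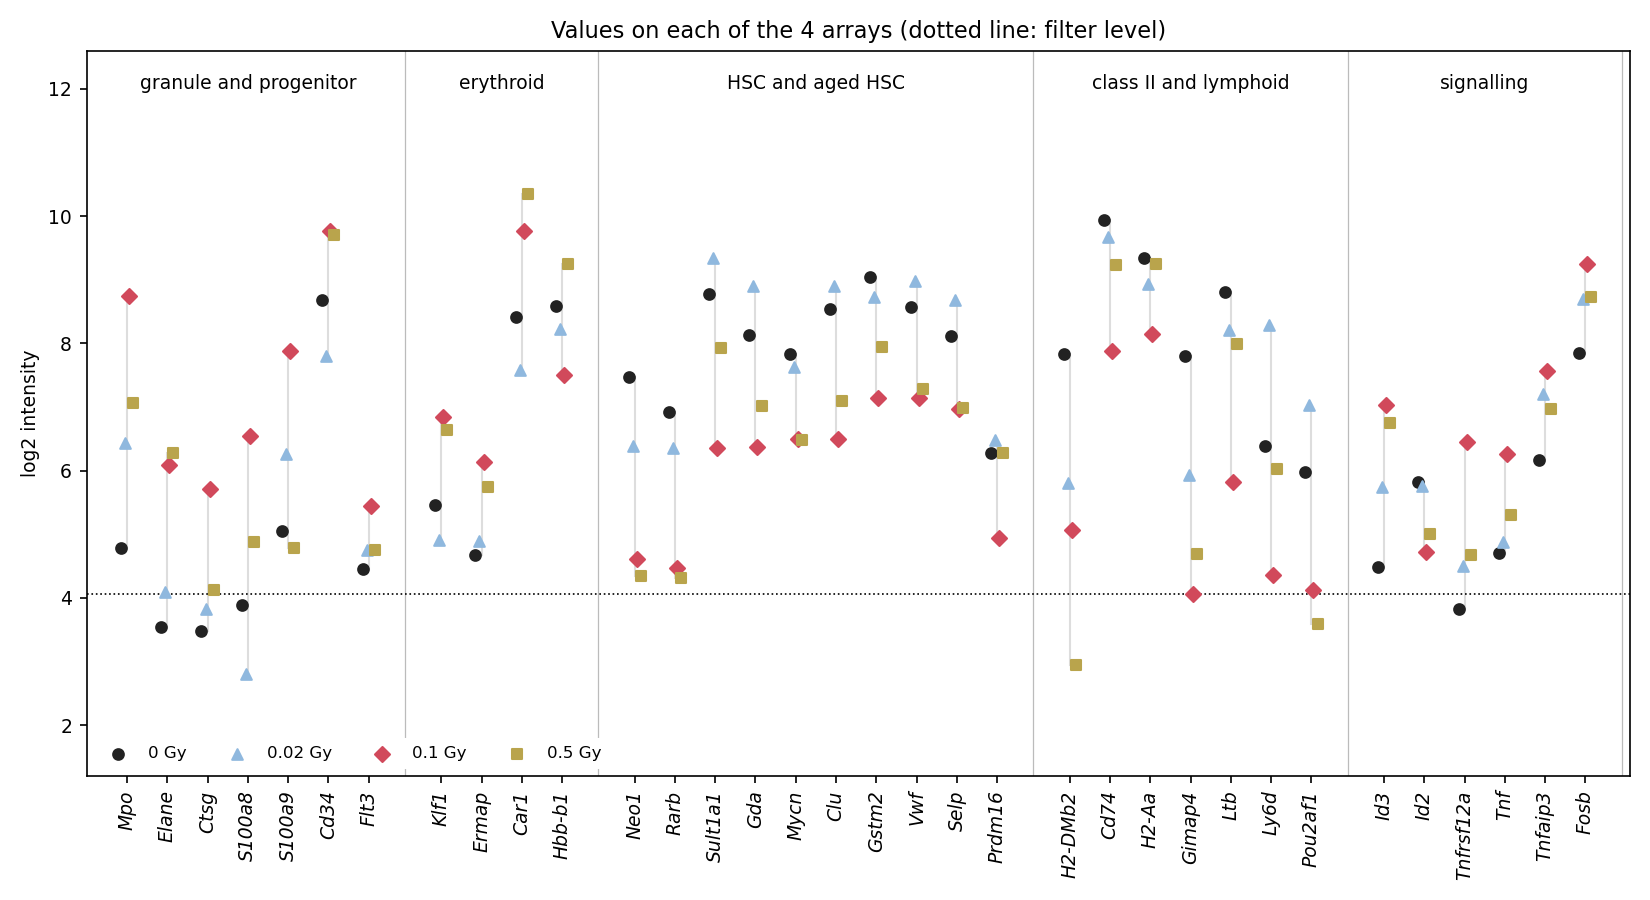
Log2 intensity of 34 genes on the 4 arrays (black circle 0 Gy, blue triangle 0.02 Gy, red diamond 0.1 Gy, ochre square 0.5 Gy), with a dotted line at the filter level of 4.06. Granule and progenitor genes such as Mpo (4.78 at 0 Gy, 8.75 at 0.1 Gy) have the red diamond high, and HSC and class II genes such as Neo1 (7.47 and 4.61) have it low.

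Genes of the long-term HSC signature were lower at 0.1 Gy. Of 31 kept members (33 measured) 10 were at least 1.5-fold lower and 0 higher (median -0.30), and 24 lay below 0 Gy. The differences were concentrated in a few genes. Neo1 (18007), a receptor for netrins and repulsive guidance molecules, had 7.47, 6.38, 4.61 and 4.35, and Rarb, a retinoic acid receptor, had 6.91, 6.35, 4.46 and 4.31. In both, the 0.1 and 0.5 Gy arrays lay far below the other arrays.

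Sult1a1 (20887), a phenol sulfotransferase, differed in being lowest at 0.1 Gy: its values were 8.77, 9.33, 6.36 and 7.93, which put the 0.1 Gy array 1.58 below the nearest other. Gda, guanine deaminase, had 8.13, 8.90, 6.37 and 7.02. Mycn had 7.83, 7.62, 6.49 and 6.49. Smaller differences were found for the angiopoietin receptor gene Tek (-0.82), the transglutaminase gene Tgm2 (-0.75), the imprinted gene Ndn (-0.72), Fgd5 (-0.71) and the catenin-like gene Ctnnal1 (-0.67).

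Other members that mark HSCs were near equal or slightly higher. Procr, the endothelial protein C receptor, had 6.79 at 0 Gy and 7.09 at 0.1 Gy, Hlf had 9.63 and 9.66, and Meis1 had 9.63 and 9.61. Vldlr, the very low density lipoprotein receptor, was 0.52 higher. Transcription factors of the signature were thus found both near 0 Gy (Hlf, Meis1) and well below it (Mycn and the nuclear receptor Rarb).

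A list of HSC transcription factors overlaps the signature in 5 genes, Hlf and Meis1 among them, which is 23.8% of its kept members and 16.1% of the signature's. Of its 21 kept members 20 were within 1.5-fold (median -0.05) that was 0.01 after quantile normalization. Runx1 had 9.35, Myb 10.13 and Cbfb 8.26 on both arrays, and Spi1, which encodes PU.1, had 8.71 and 8.76. Prdm16, a zinc finger regulator of HSC maintenance, was the exception, with 6.28, 6.47, 4.94 and 6.28, low at 0.1 Gy alone by 1.34. Cebpa, the driver of granulocyte commitment, was below the filter level on average, with 3.45, 3.63, 4.20 and 3.63.

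Aged HSC genes had the lowest median of the lists. Of 27 kept members (29 measured) 15 were at least 1.5-fold lower and 1 higher (median -0.61), and 25 lay below 0 Gy. The list shares 5 genes with the HSC signature, among them Neo1 and Sult1a1, which is 18.5% of its kept members and 16.1% of the signature's. Clu, clusterin, had 8.54, 8.90, 6.50 and 7.09, and Gstm2, a glutathione transferase, had 9.05, 8.72, 7.14 and 7.94. In both, the 0.1 Gy value was the lowest and the 0.5 Gy value the next.

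Further members at least 2-fold lower were Clca3a1 (-1.19), the adrenomedullin co-receptor gene Ramp2 (-1.39) and Amotl2 (-1.05). The metallothionein gene Mt1 (-0.90), Plscr2 (-0.88), the caveolar gene Cavin2 (-0.79) and the stress gene Nupr1 (-0.61) were lower by less. Jun, an AP-1 subunit, was 0.67 higher, and Plek, pleckstrin, 0.35 higher. At 0.02 Gy the list's median was 0.41 and at 0.5 Gy -0.50, both against the same 0 Gy array.

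Hox genes, which pattern stem cell identity, lay on both sides of 0. Of 16 kept members (26 measured) 3 were at least 1.5-fold lower and 2 higher (median -0.19). Hoxb8 had 6.03, 5.53, 4.02 and 4.20, Hoxb2 had 4.86, 5.12, 3.91 and 4.02, and Hoxb6 had 5.83, 6.60, 5.11 and 4.31. These HoxB members were lower at 0.1 and 0.5 Gy than on the other arrays. In the HoxA cluster Hoxa3 (0.88) and Hoxa4 (0.64) were higher at 0.1 Gy, and Hoxa9 had 7.17 on both arrays.

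Retinoid receptors and enzymes were low, with 5 of 9 kept members at least 1.5-fold lower, 1 higher and a median of -0.61. Over the 16 measured members, 7 of which were below the filter level on both arrays, the median was -0.05. Beside Rarb, the retinoic acid-degrading enzyme gene Cyp26b1 (-0.86), the retinal reductase gene Dhrs3 (-0.79), the receptor gene Rara (-0.63) and the dehydrogenase gene Aldh1a1 (-0.61) were lower, whereas Rarg was 0.60 higher. Aldh1a1 was bright throughout, with 10.99, 10.70, 10.39 and 10.61. Rarb is also in the HSC signature and Aldh1a1 in the aged HSC list.

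Class II antigen presentation genes were lower. Of 15 kept members (17 measured) 7 were at least 1.5-fold lower and 1 higher (median -0.42). These genes load and display peptides to CD4 T cells, and HSCs are known to transcribe some of them. Cd74 (16149), the invariant chain, had 9.94, 9.68, 7.87 and 9.23, so that only the 0.1 Gy array was far below 0 Gy. H2-Aa, a class II α chain, likewise had 9.35, 8.93, 8.14 and 9.25.

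The chaperone gene H2-DMb2 (15000) had another order, 7.83, 5.80, 5.06 and 2.95, in which each irradiated array lay at least 2-fold below 0 Gy. Its neighbours in function differed less: H2-DMb1 had a difference of -0.66, H2-Oa -0.66, H2-Ab1 -0.63 and H2-Eb1 -0.63, while H2-DMa was at -0.16. H2-Ob, a modulator of the H2-DM chaperone, was 0.69 higher, from 3.93. The regulators differed little, with Ciita at 5.26 and 5.07, Rfx5 at 6.85 and 6.70 and Rfxank at 6.17 and 6.33. Over the 17 measured members the summed linear intensity was 4296, 3603, 2444 and 3376 at 0, 0.02, 0.1 and 0.5 Gy.

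The promoters of 3 of these genes are shown with capitals at CTGATTGG, the Y box that most class II promoters carry, which is present on either strand in 3.16% of the 32851 windows.
H2-Aa, chr17:34287824-34287973, minus strand: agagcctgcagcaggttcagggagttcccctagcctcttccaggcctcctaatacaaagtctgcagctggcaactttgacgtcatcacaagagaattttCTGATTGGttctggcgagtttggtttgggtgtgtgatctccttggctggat
H2-Eb1, chr17:34305717-34305866, plus strand: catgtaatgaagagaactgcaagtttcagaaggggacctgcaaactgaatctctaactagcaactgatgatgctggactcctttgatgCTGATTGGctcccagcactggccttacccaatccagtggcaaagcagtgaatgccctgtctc
H2-DMb2, chr17:34145099-34145248, plus strand: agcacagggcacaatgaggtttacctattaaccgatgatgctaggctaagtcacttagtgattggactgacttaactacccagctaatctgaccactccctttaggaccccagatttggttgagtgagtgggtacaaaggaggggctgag

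The Y box begins at position -51 in H2-Aa and at -62 in H2-Eb1. These 8 letters have no exact match in this window of H2-DMb2. The window does hold GTGATTGG, which differs from them in the first letter alone, and only exact matches were marked. Sequences are from RefSeq, GRCm38.p6, as above.

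Interferon-stimulated genes had 6 of 42 kept members at least 1.5-fold lower and 1 higher (median -0.24). The immunity-related GTPases led: Igtp had 9.02, 8.46, 7.61 and 8.61, Iigp1 had 8.11 at 0 Gy and 6.70 at 0.1 Gy, and Irgm2 had 8.36, 7.57, 6.97 and 7.12. In each the 0.1 Gy array was the lowest. The guanylate-binding protein genes Gbp2 (-0.64) and Gbp3 (-0.57) and the antiviral gene Rsad2 (-0.95) were also lower. Gbp8, outside the list, had 5.52 at 0 Gy and 3.22 at 0.1 Gy. The RNA sensor regulator gene Dhx58 was 0.87 higher.

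GIMAP genes encode GTPases of lymphocyte survival. All 7 kept members, and Gimap3, which was not kept, had lower values at 0.1 Gy (median -0.51). Gimap4 had 7.81, 5.92, 4.05 and 4.69, a 13.5-fold difference that ends just under the filter level. Gimap8 had 5.49 and 4.52. The other kept members differed by less than 1.5-fold, Gimap6 having 8.79 and 8.28. Medians at 0.02 and 0.5 Gy, against the same 0 Gy array, were -0.30 and -0.51, and against the mean of the 0, 0.02 and 0.5 Gy arrays the 0.1 Gy median was -0.17.

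The endothelial and stromal list holds markers of cells that a marrow sort can carry over. Its members Tek, Esam and Robo4 are also in the long-term HSC signature, so the list is not one of carried-over cells alone. Of its 12 kept members 0 were higher and 4 at least 1.5-fold lower (median -0.36). All 12 lay below 0 Gy, the endothelial genes Tie1 and Emcn by 0.01 each. The endothelial factor gene Sox18 had 6.35 at 0 Gy and 3.91, 4.38 and 4.38 on the irradiated arrays. Ecscr, an endothelial surface gene, had 5.64, 5.35, 4.31 and 4.97, and Cxcl12, the niche chemokine, had 5.36 at 0 Gy and 4.53 or 4.54 elsewhere. The vascular cadherin gene Cdh5 (3.14 and 3.53) and collagen Col1a1 (3.33 and 3.57) were below the filter level on both arrays. Over the 25 measured members the median was -0.10 and the summed linear intensity 1822, 1773, 1415 and 1552. The part of such cells in the HSC gene values was not tested.

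Monocyte and macrophage genes were mostly dim, with 17 of 25 below the filter level on both arrays. Of the 8 kept, 1 was at least 1.5-fold higher and 2 lower (median -0.28), and over the 25 measured it was 0.00. Cd68, a lysosomal glycoprotein of macrophages, had 6.10, 7.78, 4.02 and 6.18, low at 0.1 Gy alone by 2.07. Spic, a factor of red pulp and marrow macrophages, had 4.37, 4.35, 5.37 and 4.31, high at 0.1 Gy alone. C1qa had 4.57 and 4.16. The 25 genes summed to 490, 922, 459 and 416 on the linear scale, and their part in other results was not tested.

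Of eosinophil, basophil and mast cell genes only 3 of 20 were kept (median 0.38), and over the 20 measured it was 0.09. Prg2, major basic protein, had 6.83 and 5.36, and Cpa3, a mast cell carboxypeptidase, had 3.75 and 4.95, with 17 of the 20 below the filter level on both arrays. T and NK cell genes had 0 of 8 kept members at least 1.5-fold higher and 1 lower (median 0.01). That member was Ltb (16994), lymphotoxin beta, with 8.80, 8.21, 5.82 and 7.98. The 0.1 Gy array was 2.17 below the nearest other array.

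Within the TNF ligand and receptor superfamilies 20 of 44 genes were kept, of which 2 were at least 1.5-fold higher and 3 lower (median 0.01). The members lay on both sides of 0. Tnfrsf12a, the receptor for TWEAK, had 3.82, 4.50, 6.45 and 4.67, and Tnf had 4.70, 4.88, 6.26 and 5.30. Both were highest at 0.1 Gy. Beside Ltb, the ligand genes Tnfsf4 (OX40L, -1.04) and Tnfsf10 (TRAIL, -0.64) were lower.

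NF-kB subunits and feedback inhibitors had 2 of 18 members higher and 1 lower (median 0.00). Tnfaip3, the deubiquitinase A20, had 6.16, 7.21, 7.57 and 6.96, and Nfkbiz had 5.99 and 6.60. Birc3, an inhibitor of apoptosis, was lower, with 7.68 and 6.66. For Tnfaip3 the 0 Gy array was the lowest of the 4 by 0.80.

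AP-1 factors had 5 of 15 kept members at least 1.5-fold higher and 1 lower (median 0.07). Fosb had 7.85, 8.70, 9.25 and 8.74, Atf3 had 6.81, 7.31, 7.77 and 7.91, and Jun had 10.12, 10.54, 10.79 and 10.77. In each the 0 Gy array was the lowest. Jund (0.71) and Jdp2 (0.65) were the other higher members, and Batf2, an interferon-responsive member, was 1.19 lower. Of the EGR, NR4A and KLF early response factors 2 of 26 were higher, Klf2 (0.90) and Klf6 (0.88), and 0 lower (median 0.07).

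ID proteins and TGF-beta targets had 1 of 22 kept members higher and 1 lower (median -0.01). Both are inhibitors of bHLH transcription factors. Id3 had 4.48, 5.74, 7.04 and 6.74, and Id2 had 5.82, 5.76, 4.72 and 5.01. The related genes thus differed in opposite directions at 0.1 and at 0.5 Gy.

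SOCS proteins and STAT targets had 3 of 22 members higher and 3 lower (median -0.02). Osm, oncostatin M, had 4.14, 5.34, 5.85 and 5.55, while Il6st, the gp130 subunit of its receptor, had 7.80, 7.66, 6.43 and 7.20. Socs3 (0.98) and Bcl6 (0.84) were higher, though both were higher still at 0.02 Gy, at 7.53 and 6.41. Cish was 0.67 lower.

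Chemokines and their receptors had 17 of 55 genes kept, 2 higher and 5 lower (median -0.07). Ccl4 had 6.85, 7.65, 8.36 and 8.40, and Cxcl2 was 1.33 above its 0 Gy value of 3.67, with 5.52 and 4.63 at 0.02 and 0.5 Gy. Ccl19, a lymphoid homing chemokine, had 6.78, 5.18, 4.55 and 4.57, and Cx3cl1, fractalkine, had 6.71, 4.66, 5.05 and 5.08. In these 4 genes the 0 Gy array stood at one end of the range, and the 3 irradiated arrays lay on the same side of it. Cxcr1, a receptor gene, was instead low at 0.1 Gy alone, with 5.53, 5.95, 4.53 and 5.91.

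Lists of the radiation response had medians close to 0. Of 28 kept DNA double-strand break repair genes 26 were within 1.5-fold, 1 was higher and 1 lower, and the median was 0.00. Brca1, which acts in homologous recombination, had 6.01, 5.90, 7.32 and 6.05, high at 0.1 Gy alone. Of 24 kept p53 target genes 4 were higher and 3 lower (median 0.03).

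Among the p53 targets, Cdkn1a, which encodes the cell cycle inhibitor p21, had 7.87, 9.68, 8.82 and 9.52, so its 0.1 Gy value was the nearest to 0 Gy of the irradiated arrays. Gadd45a (0.68), Plk3 (0.68) and Gtse1 (0.65) were also higher. Trp53inp1 (-1.13), the mTOR inhibitor gene Ddit4 (-1.13) and the nucleotide excision repair gene Ddb2 (-0.92) were lower. The targets therefore did not share a direction.

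Cell cycle lists lay near 0. Mitosis and spindle genes had 36 of 37 members within 1.5-fold and a median of 0.04, DNA replication genes 33 of 38 and 0.00, and CDK inhibitors and D cyclins 11 of 14 and -0.01. Nek2, a centrosomal kinase, was 0.61 higher, and the replication factor genes Gins3 and Mcm10 were 0.88 and 0.69 higher. Cyclin D1 and its partner kinase differed in direction: Ccnd1 had 8.45 and 7.16, and Cdk6 had 8.92 and 9.85. FOXO factors and quiescence regulators had 2 of 17 higher, 2 lower and a median of -0.03, with the antiproliferative gene Tob1 at 0.91 and Ndn at -0.72.

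Metabolic and stress lists were also close to 0, with single members apart. Cholesterol and fatty acid synthesis genes had 4 of 26 higher and 0 lower (median 0.20), led by the desaturase gene Scd1 (0.86) and Hsd17b7 (0.86). Oxidative phosphorylation genes had 35 of 36 within 1.5-fold and a median of 0.00. In the glycolysis and citric acid cycle list 25 of 26 were within it (median 0.00), the exception being Aldoc, aldolase C, with 4.66, 6.25, 6.47 and 5.90. Ribosomal protein genes had 1 of 28 higher and 2 lower (median -0.01).

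NRF2 targets and antioxidant enzymes had 1 of 26 higher and 3 lower (median -0.02), and Srxn1, sulfiredoxin, was lowest at -0.98. Heat shock and unfolded protein response genes had 2 of 26 higher and 1 lower (median 0.02). There the stress factor Ddit3 had 6.43 and 7.81 and its target Trib3 had 5.28 and 4.11. BCL2 family genes had 0 of 11 higher and 2 lower (median -0.26), the lower ones being the survival genes Bcl2l2 (-1.04) and Bcl2l1 (-0.59). The near-0 medians of CDK inhibitors, FOXO factors, NRF2 targets, SOCS, ID, ribosomal protein and glycolysis genes turned sign under quantile normalization. DNA and histone modifying enzymes had 35 of 37 within 1.5-fold and a median of 0.00, with the exceptions Ezh1 (-1.01), a Polycomb methyltransferase, and Dot1l (0.80), the H3K79 methyltransferase.

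Small RNA genes are described here although the choice was made after their values were seen. Of 99 kept microRNA genes 12 (12.1%) lay 2-fold or more above 0 Gy and 5 (5.05%) below it, and of 65 kept small nucleolar RNA genes 11 (16.9%) were higher and 8 (12.3%) lower. Among 10701 protein-coding genes the shares were 1.26% and 2.2%. Median mean intensity was 5.18 for microRNA, 5.81 for small nucleolar RNA and 6.49 for protein-coding genes; the part of intensity in these shares was not tested. The array reads the gene's probe set, so the mature arms of a hairpin cannot be told apart.

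Mature sequences are shown for the microRNA genes of 2 chromosomal clusters with large differences, and for the one with the largest difference. Capitals mark the seed, bases 2 to 8 from the 5′ end. Sequences are from RefSeq, GRCm38.p6.
miR-26a-5p: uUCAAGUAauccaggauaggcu
miR-23a-3p: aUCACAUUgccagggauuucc
miR-27a-3p: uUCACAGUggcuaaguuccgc
miR-17-5p: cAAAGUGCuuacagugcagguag
miR-18a-5p: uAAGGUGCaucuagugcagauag

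No seed is shared among these 5. Within their own clusters the seeds of miR-23a-3p and miR-27a-3p differ by U7G, and those of miR-17-5p and miR-18a-5p by A4G, positions counted from 1 at the 5′ end. Mir26a-2 had 2.88, 3.12, 7.67 and 3.12, so it was high at 0.1 Gy alone. Mir26a-1, on another chromosome, gives the same mature miR-26a-5p and had 2.76 on the first 3 arrays and 2.85 at 0.5 Gy.

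Mir23a and Mir27a are close neighbours, and both were highest at 0.1 Gy. Mir23a had 4.04, 4.97, 6.46 and 4.72, and Mir27a had 4.01, 4.78, 6.44 and 6.11. Mir24-2, of the same cluster, was below the filter level on average and was 1.12 higher, from 2.88. In the cluster on chromosome 14, Mir17 had 6.60, 5.68, 4.46 and 2.86, and Mir18 had 6.66, 6.18, 4.21 and 3.44, lower at 0.1 Gy and lower still at 0.5 Gy. Their neighbours Mir19a (2.32 on both arrays), Mir20a (3.58 and 2.64) and Mir19b-1 (2.97 and 3.13) were not kept. Mir5124a had 3.88, 7.13, 7.41 and 5.74.

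Small nucleolar RNA genes showed wide differences in both directions. Snord42b had 2.60 at 0 Gy and 6.19 at 0.1 Gy, and Snord15b had 4.58 and 7.11. Snord38a had 6.54 and 3.78, and Snord47 had 7.74 and 5.57. These RNAs guide ribosomal RNA modification and lie in introns of host genes.

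Immunoglobulin genes held the largest differences. Of 199 measured, 100 were kept, and of those 43 were 2-fold or more below their 0 Gy value and 10 above it. The other 2 kept symbols that start with Igh, Igk or Igl, Ighmbp2 and Iglon5, are not immunoglobulin genes. Because the filter passes a gene dim on the compared arrays if another array is bright, the 199 measured genes are the fairer base. The median difference was -0.70 over the 100 kept genes and -0.16 over the 199 measured. Antibody genes are assembled in B cells, which then keep a single heavy and light chain rearrangement, and plasma cells transcribe them at very high levels. HSCs are not expected to carry them.

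Constant regions separated by class. Ighg1 (16017) had 11.04, 12.55, 3.06 and 4.12 at 0, 0.02, 0.1 and 0.5 Gy, Ighg2b had 11.07, 12.12, 3.73 and 4.20, and Ighg2c had 11.36, 12.33, 4.21 and 3.75. These 3 IgG genes were bright on the 0 and 0.02 Gy arrays and near the filter level or below it on the others. Igha, the IgA gene, was bright on all 4 arrays, with 11.90, 12.47, 10.91 and 10.55. Igkc, the kappa constant region, had 12.66, 12.83, 12.29 and 11.70. Ighm, the IgM gene, had 10.93, 11.20, 11.35 and 7.21.

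At 0.1 Gy, then, Ighm and Igkc were within 1.5-fold of their 0 Gy level, Igha was 1.99-fold lower, and these 3 IgG genes were far lower. Igkc lay near the highest values of the arrays, 13.02 at 0 Gy and 12.97 at 0.1 Gy. The effect of this on its difference was not tested. Of 47 kept kappa variable segments 20 were at least 2-fold lower and 7 higher. Their median difference was -0.68, against -0.08 over the 94 kappa variable segments measured. Ighg3, a further IgG gene, was dim on both arrays (2.95 and 2.88). None of the 5 kept joining segments differed 2-fold, but Ighj3 came near it, with 9.42 and 10.35, and Igkj3, which was not kept, had 4.65 and 2.94. Of the 3 lambda variable segments measured, Iglv1 was far lower, with 10.06, 11.34, 4.90 and 3.92. Iglv2 had 5.12 at 0 Gy and 2.15 at 0.1 Gy, and Iglv3 was dim on both arrays (3.28 and 3.11).

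Variable segments differed in which were bright. With a log2 value of 8 taken as bright, 27 of the 185 measured were bright at 0 Gy and 11 at 0.1 Gy, only 6 of them on both arrays. Thus 21 were bright at 0 Gy and not at 0.1 Gy, and 5 at 0.1 Gy and not at 0 Gy, with 153 bright on neither. The same count was not made for other genes, so these numbers have no base rate beside them. On the 0.02 Gy array 86 were bright and on the 0.5 Gy array 2. The heavy chain gave 17 and 5 bright segments at 0 and 0.1 Gy, and kappa 9 and 6.

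Single segments had near all-or-none values. Igkv12-46 had 10.91, 11.62, 2.51 and 2.59, and Igkv16-104 had 10.62, 2.82, 3.10 and 3.10, bright at 0 Gy alone. Ighv1-53 had 11.43, 10.64, 3.29 and 7.29. In the other direction Igkv3-5 had 2.74, 10.54, 10.43 and 5.18, Ighv4-1 had 2.09, 8.02, 8.85 and 2.03, and Igkv12-89 had 2.74, 2.97, 8.06 and 4.28, bright at 0.1 Gy alone. Variable segments are near-identical in families, so signal can be shared between their probe sets.

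**Figure D4:**
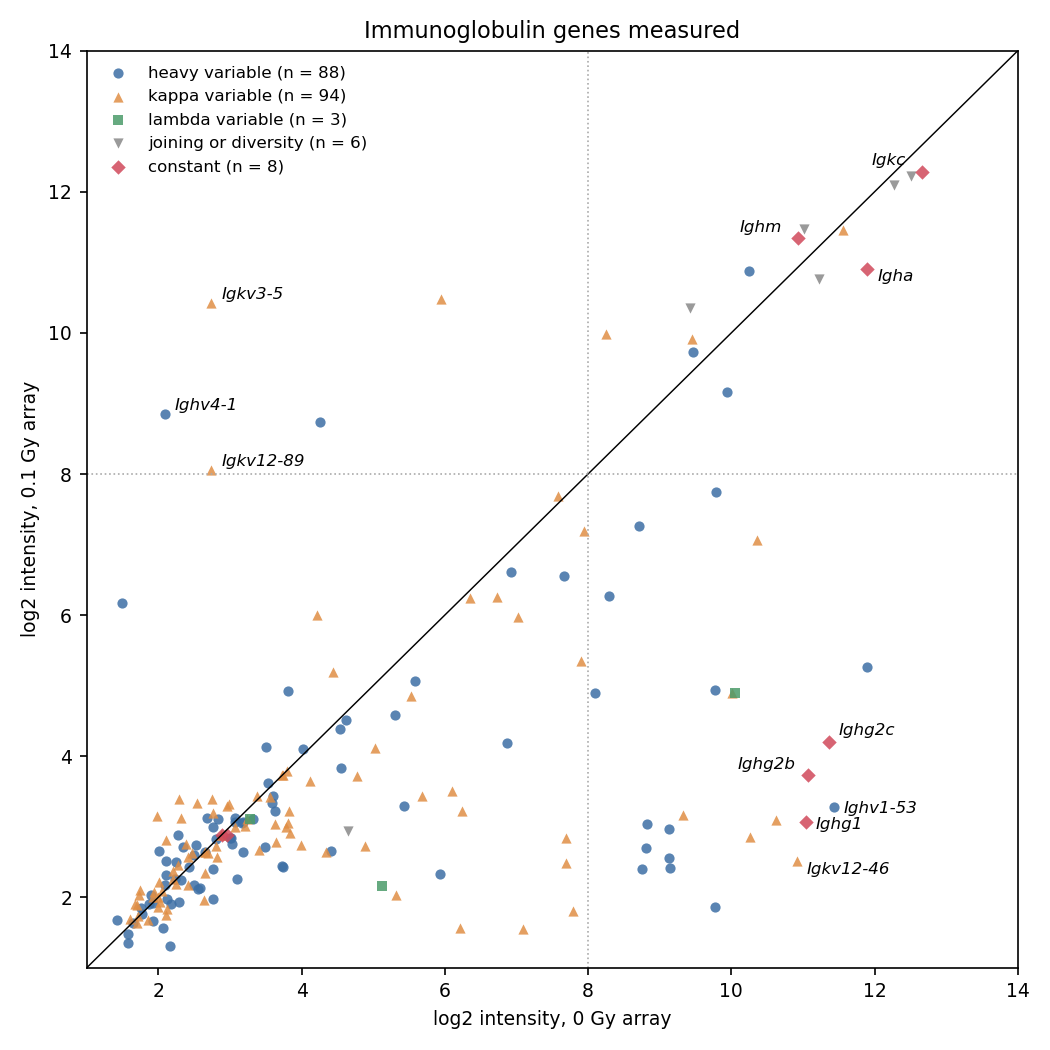
Log2 intensity on the 0.1 Gy array (vertical axis) against the 0 Gy array (horizontal axis) for the 199 immunoglobulin genes measured, by class. The solid line marks equal values and the dotted lines a log2 value of 8. Igkc and Ighm lie near the line and Igha 0.99 below it, the 3 bright IgG genes at lower right (11.04 to 11.36 at 0 Gy), and Igkv3-5 at upper left.

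Among the kept markers of antibody-secreting cells, 12 were within 1.5-fold of their 0 Gy value. Of 15 kept plasma cell genes (18 measured) 3 lay 1.5-fold or more below 0 Gy and 0 above it (median -0.33). Jchain, the joining chain of IgA and IgM, had 9.75, 10.69, 8.46 and 7.32, the endoplasmic reticulum genes Txndc5 had 8.60, 8.66, 7.50 and 7.39, and Mzb1 had 6.23, 7.60, 5.24 and 3.78. Summed over the 18 genes on the linear scale the list reached 3852, 5424, 2989 and 3004. Irf4, a factor of plasma cell identity, was dim on both arrays (3.40 and 3.53), as was Tnfrsf17 (3.47 and 3.38), the BCMA gene.

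B lineage markers were mostly below the filter level, on both arrays for 15 of 22, among them Ms4a1 (CD20, 2.32 and 2.30), Ebf1 (2.55 and 2.51) and Cd22 (2.85 on both). Of the 7 kept, 2 were higher and 2 lower (median -0.07). Ly6d, a marker of B-primed progenitors, had 6.38, 8.29, 4.37 and 6.03, and Pou2af1, a coactivator of immunoglobulin transcription, had 5.98, 7.03, 4.12 and 3.58. Cd37 was 0.62 higher, and Cd79a had 3.80 and 4.40. Summed over 22 genes the list had 862, 1493, 851 and 727. The part of B lineage or plasma cells in the immunoglobulin values was not tested.

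Whether a difference lay with the 0.1 Gy or the 0 Gy array was read from the other arrays. Of the 174 higher genes outside the immunoglobulin symbols, the 0.1 Gy array was at least 2-fold above each other array for 35, the 0 Gy array at least 2-fold below each other array for 37, and neither held for 104. For the 268 lower genes the counts were 41, 47 and 180. The remainder had another array between or beside the compared values. Comparisons of the other doses with 0 Gy use the same 0 Gy array, so shared members between them carry no separate evidence.

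Leaving out immunoglobulin, small RNA and clone-named genes, those that stood farthest above the other 3 arrays at 0.1 Gy included Hnf4a, a nuclear receptor of liver and gut, with 4.20, 4.36, 6.71 and 4.32, a gap of 2.35 to the nearest. Tnfrsf12a followed at 1.78, then Mpo at 1.68, S100a8 and H3f3a, which encodes histone H3.3, with 3.51, 3.43, 5.60 and 3.95. Coa7, a respiratory chain assembly factor gene, had 6.85 at 0.1 Gy and 5.29 on each other array. Tjap1 had 6.90 against 5.33 to 5.42, and Atp1b2, a subunit of the sodium pump, had 6.96 against 4.03 to 5.63. For Coa7 only the 0.1 Gy value differed. Exact ties between arrays are common here, at 16.1% of kept genes for 0 and 0.1 Gy, and their origin was not tested.

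With the same genes left out, those farthest below were Ltb, at 2.17, Armcx5, with 5.28, 4.96, 2.87 and 6.18, and Mterf1b, a mitochondrial transcription termination factor gene, with 6.39, 6.12, 4.04 and 7.21. Cd68 followed, then Pnp2, a purine nucleoside phosphorylase gene (5.76 at 0 Gy and 3.87 at 0.1 Gy), Ly6d, Cpne8 (5.66 and 3.83), Sult1a1, Spaca9 (5.39 and 3.20) and the serpin gene Serpinb6b (5.68 and 4.21). Lymphoid, macrophage and HSC genes thus stood beside genes of no common list.

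In other large differences the 0 Gy array stood apart. Nipa1, a magnesium transporter gene, had 7.55 at 0 Gy and 4.79, 4.88 and 4.30 on the irradiated arrays, and Slc17a8, a vesicular glutamate transporter gene, had 6.60 and then 4.25, 4.41 and 4.30. Zfp991 differed from these, with 6.78 and 5.98 at 0 and 0.5 Gy and 3.99 and 4.30 at 0.02 and 0.1 Gy. On the higher side Lysmd1 had 6.55, 8.74, 8.56 and 7.50, Pcp4l1 had 5.99 at 0 Gy and at least 7.61 on the irradiated arrays, and Il10rb, the shared subunit of the IL-10 and interferon lambda receptors, had 4.95, 5.99, 6.91 and 6.64. Pcdhgb2 had 2.77, 5.99, 4.47 and 4.47, and since protocadherin genes of its cluster share exons its value is uncertain.

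Slpi, an inhibitor of neutrophil elastase, was among the brightest genes with a large difference, with 9.49, 11.56, 6.48 and 7.03, lower at 0.1 and 0.5 Gy and higher at 0.02 Gy. Serpina3f, another protease inhibitor gene, had 6.11, 4.46, 3.34 and 3.91. Jam2, a junctional adhesion molecule of HSCs and endothelium, had 6.62, 7.54, 4.30 and 4.94, and Clip3 had 6.75, 7.09, 4.59 and 5.48. Uxt, a prefoldin-like gene, had 6.40, 4.09, 3.07 and 5.61. Among the higher genes were Paqr5, a membrane progestin receptor, with 4.10, 5.09, 6.08 and 4.88, and Clnk, an immunoreceptor adaptor, with 3.84, 4.81, 5.82 and 5.05. Cby1, a β-catenin antagonist gene, had 6.26, 6.90, 8.06 and 6.06, and Sarnp, an mRNA export factor gene, had 4.29, 4.58, 6.40 and 5.23, both highest at 0.1 Gy.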

How the data were processed

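Per the labels, biotin-labelled cDNA from total RNA of sorted mouse HSCs was hybridised to an Affymetrix whole-transcript array, 1 per dose. The deposited values are log2 intensities, 1 for each of 25206 probe sets defined by an Entrez gene, and the base was inferred from their range. Partek is named without role or version, per the submitters' processing notes, and the sources used here do not give background correction, normalization or build. Array medians lay between 4.01 and 4.07. Of the probe sets 23185 have a symbol, and 2021 without one were left out. Values were used as deposited. Python 3.11.15, pandas 2.3.3 and limma 3.58.1 in R 4.3.3 (alternative scalings) were used, and the computation was checked on simulated data. The comparison, the 40 gene lists and the named genes were chosen with earlier results of these data known. Named genes are the 25 highest and lowest, 5 immunoglobulin genes a side, up to 6 members per list, the sort markers and the 10 a side farthest from the other arrays, leaving out clone-named genes, chemosensory receptors, small RNAs and T cell receptor segments. Further list members, Gimap3, small RNAs, immunoglobulin constant, joining and lambda genes were named after their values were seen. Alternatives were 3 scalings, 4 filters, thresholds of 1.5-fold and 3-fold, and a control made of the mean of the 0, 0.02 and 0.5 Gy arrays. A double-strand break repair gene is not reported here.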

Additional observations from a re-analysis of the deposited data

Results flagged for a closer look

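Probe sets without a gene symbol were outside the comparison and also held 2-fold differences. Of 935 such probe sets at or above the filter level, 20 were at least 2-fold higher at 0.1 Gy than at 0 Gy and 19 at least 2-fold lower. The excess of lower over higher genes among the 11593 kept genes (311 and 184) was not seen in them. They carry no gene name here.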

How the results depend on the processing

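Quantile normalization, median centring and cyclic loess kept each count of genes at least 2-fold higher or lower within 1.5 times of that reported, and moved the median of all genes by at most 0.033. No filter, a filter on the 2 arrays alone and requiring both values at the filter level did so too. A stricter filter that kept 7729 genes gave 86 higher and 169 lower genes (81 and 144 without immunoglobulin symbols). A 1.5-fold threshold gave 638 and 867 (622 and 815), and a 3-fold threshold 58 and 101 (51 and 64). Against the mean of the 0, 0.02 and 0.5 Gy arrays the counts were 121 and 203 (106 and 134). The neutrophil granule median was 0.27 with no filter and 0.91 under the stricter filter, which drops dim granule genes, and the erythroid median was 0.10 against that 3-array mean. The GIMAP median was -0.17 against the same mean. Under the stricter filter, which leaves fewer kept members, the eosinophil, basophil and mast cell median turned to -0.55, that of the sort markers to -0.13 and that of T and NK cell genes to -1.26. Medians near 0 also changed sign under some alternatives, 8 of them under quantile normalization. Under these alternatives 265 list medians stayed within 0.25 of their value and 15 moved further. Of the named gene differences 900 stayed within 0.25 and 152 moved further, all of the latter against the 3-array mean. No paired analysis was possible because each dose has 1 array. Signal near background limits the size of differences that involve a value under the filter level.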
